A study of Mus musculus with 6 samples.

Results

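Transcripts of 7 inflammatory chemokine receptors, *Ccr1*, *Ccr2*, *Ccr3*, *Cxcr1*, *Cxcr2*, *Cxcr3* and *Cxcr6*, were measured by RNA sequencing of CD4+ T cells from mice in 6 libraries. The genes were found by name, and all 7 had a row among the 21362 genes of the count and FPKM tables. They were chosen by family membership with their levels in these same libraries already known, among them the wide range of *Cxcr1*, so their ranges describe the libraries and were not tested. The study set sorafenib, an oral inhibitor of several protein kinases, on regulatory T cells and also took cells without the drug. The labels number the libraries 1 to 6, give the cell type, and do not name the treatment of any of them or say whether they came from separate mice or cultures. The libraries therefore form no groups here, none was averaged as a replicate of another, and values in a series run from library 1 to library 6. The libraries held between 32435799 and 36316162 counts. Levels are CPM, counts-per-million after TMM scaling for library composition, and 95% intervals are exact Poisson limits that cover counting error only.

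Chemokine receptors are G protein-coupled receptors through which leukocytes sense gradients of small secreted proteins and move along them. Homing receptors such as Ccr7 guide resting lymphocytes into lymph nodes, whereas the inflammatory receptors described here direct cells into inflamed tissue and are gained by T cells after activation. Ccr1, Ccr2 and Ccr3 belong to the CC class and answer to macrophage inflammatory proteins, monocyte chemoattractants and eotaxins. Cxcr1 and Cxcr2 are best known on neutrophils, Cxcr3 marks type 1 effector T cells, and Cxcr6, the receptor for Cxcl16, marks T cells that lodge in tissues such as the liver.

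The genes lie in 3 places in the genome. By the order of genes in RefSeq for the assembly GRCm38.p6, *Ccr1*, *Ccr1l1*, *Ccr3* and *Ccr2* follow each other on chromosome 9, where *Cxcr6* also lies. *Cxcr2* and *Cxcr1* are adjacent on chromosome 1, and *Cxcr3* lies on the X chromosome. The submitters' processing notes name the later assembly GRCm39, so positions are given only with the reference sequences. Promoter sequences from RefSeq, 250 bases before and 50 after the annotated start, are shown for 4 genes. *Ccr1* and *Ccr3* are shown for their wide ranges, *Cxcr1* because it had the most reads, and *Cxcr3* because its levels ran the other way. The windows are chr9:123968643-123968942 on the minus strand for *Ccr1*, chr9:124021721-124022020 on the plus strand for *Ccr3*, chr1:74194582-74194881 on the minus strand for *Cxcr1* and chrX:101734098-101734397 on the minus strand for *Cxcr3*, all in GRCm38.p6. Each is printed along the gene's own strand, and capitals mark matches to the motifs described after them.
Ccr1: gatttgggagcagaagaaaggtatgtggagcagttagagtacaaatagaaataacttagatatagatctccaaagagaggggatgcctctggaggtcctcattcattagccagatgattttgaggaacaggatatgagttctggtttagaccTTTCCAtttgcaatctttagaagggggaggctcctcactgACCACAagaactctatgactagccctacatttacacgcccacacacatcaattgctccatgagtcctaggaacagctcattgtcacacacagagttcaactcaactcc
Ccr3: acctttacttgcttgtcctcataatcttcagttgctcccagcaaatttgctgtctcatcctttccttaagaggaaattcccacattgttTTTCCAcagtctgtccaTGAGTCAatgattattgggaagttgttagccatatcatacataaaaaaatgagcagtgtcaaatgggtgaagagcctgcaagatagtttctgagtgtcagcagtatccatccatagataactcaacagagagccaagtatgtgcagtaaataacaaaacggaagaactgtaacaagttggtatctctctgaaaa
Cxcr1: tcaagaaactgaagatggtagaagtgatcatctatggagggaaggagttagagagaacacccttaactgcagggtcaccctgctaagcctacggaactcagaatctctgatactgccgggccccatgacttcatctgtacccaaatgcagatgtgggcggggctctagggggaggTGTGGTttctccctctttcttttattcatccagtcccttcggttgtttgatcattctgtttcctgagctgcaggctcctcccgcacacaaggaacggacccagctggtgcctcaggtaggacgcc
Cxcr3: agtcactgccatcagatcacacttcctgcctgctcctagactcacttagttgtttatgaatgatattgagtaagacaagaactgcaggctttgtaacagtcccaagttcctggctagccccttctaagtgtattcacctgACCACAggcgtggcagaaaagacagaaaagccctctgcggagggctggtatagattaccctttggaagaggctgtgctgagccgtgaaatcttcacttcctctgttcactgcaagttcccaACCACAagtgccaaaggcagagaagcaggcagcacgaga

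Matches were searched on both strands to core letters of 5 factor families active in T cells. The letters were TGANTCA for AP-1, TGGAAA for NFAT, TGTGGT for RUNX, GGTGTGA for T-box factors and TTCNNNGAA for STAT factors. Of 32851 promoter windows of the same length, 7.81% held the AP-1 letters, 21.4% the NFAT letters, 16.8% the RUNX letters, 3.98% the T-box letters and 8.30% the STAT letters. Over the 7 genes, *Ccr3* alone held the AP-1 letters, in the form TGAGTCA, and *Ccr1*, *Ccr2*, *Ccr3* and *Cxcr6* held the NFAT letters, *Ccr2* at 2 positions. The RUNX letters lay in *Ccr1*, *Cxcr1*, *Cxcr6* and, at 2 positions, *Cxcr3*. No T-box or STAT letters lay in any of the 7 windows, and the *Cxcr2* window held none of the 5 motifs. A match describes letters only.

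The 7 receptors were minor members of the receptor repertoire. Levels of different genes were compared per length, as the FPKM deposited by the authors. Summed over 22 chemokine receptors with a row, the 7 made up 5.32, 5.14, 4.83, 3.79, 3.85 and 3.94% of FPKM. *Ccr7*, the lymph node homing receptor, took between 45.1% and 47.6%, and *Cxcr4*, *Ccr8* and *Ccr4* followed with medians of 17.97%, 15.2% and 11.8%. That order did not hold in each library, since *Ccr8* exceeded *Cxcr4* in libraries 4, 5 and 6 and *Ccr4* exceeded *Ccr8* in library 1. By median FPKM the order within the 7 was *Cxcr3* at 4.37, *Cxcr6* at 4.09, *Cxcr1* at 2.82, *Ccr1* at 1.62, *Ccr2* at 1.49, *Cxcr2* at 0.919 and *Ccr3* at 0.481. The ranges of every pair of neighbours in that order overlapped over the libraries. Within libraries, *Cxcr1* exceeded *Ccr1*, *Ccr2* exceeded *Cxcr2*, and *Cxcr2* exceeded *Ccr3* in 6 of 6, while *Cxcr3* exceeded *Cxcr6* in 3 and *Ccr1* exceeded *Ccr2* in 3. *Cxcr1* led the 7 in libraries 1 and 2, *Cxcr6* in library 3, and *Cxcr3* in libraries 4, 5 and 6. The place of *Cxcr1* rests on a gene length of 3435 bases, more than its RefSeq span of 2924 bases. A shorter length would raise its FPKM.

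**Figure D1:**
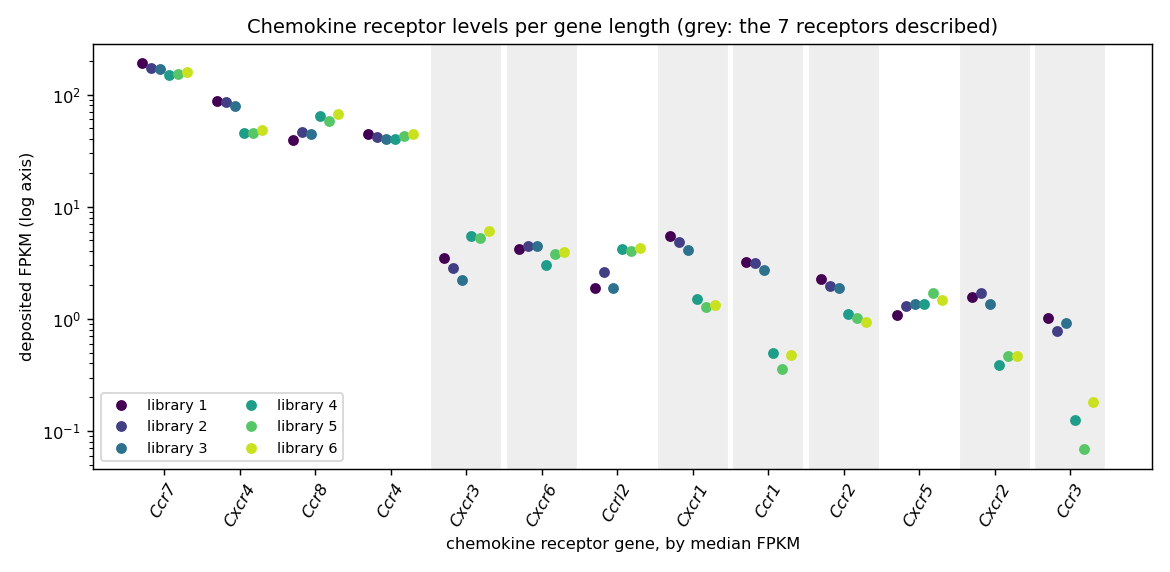
Deposited FPKM on a log axis for the 7 receptors described and 6 others, ordered by median, with 1 point per library and the 7 shaded grey. *Ccr7* lies highest in every library, and *Ccr3* lies lowest, with libraries 4, 5 and 6 at 0.126, 0.0688 and 0.183 FPKM.

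*Ccr1*, a receptor for Ccl3 and Ccl5 on monocytes, neutrophils and activated T cells, stood at 9.53, 9.37, 8.03, 1.34, 0.977 and 1.29 CPM, from 296, 324, 280, 51, 34 and 46 reads. Libraries 1, 2 and 3 were high and libraries 4, 5 and 6 low, with no overlap of intervals between them. The 95% interval was 8.47 to 10.7 CPM in library 1, the highest, and 0.677 to 1.37 CPM in library 5, the lowest. The ratio of these 2 libraries was 9.75 (95% interval 6.82 to 14.3).

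*Ccr3*, the eotaxin receptor of eosinophils that is also described on type 2 helper T cells, was the scarcest of the 7. It stood at 3.70, 2.83, 3.33, 0.422, 0.230 and 0.619 CPM, from 115, 98, 116, 16, 8 and 22 reads. Again libraries 4, 5 and 6 were low, and their highest upper limit, 0.937 CPM in library 6, lay under the lowest limit of the others, 2.30 CPM in library 2. Library 1 exceeded library 5 by a ratio of 16.1, with a wide interval of 7.90 to 38.2 because library 5 had 8 reads. *Ccr3* reached a mean of 1 CPM through libraries 1, 2 and 3 and was under 1 CPM in each of the others.

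*Ccr2*, the receptor for Ccl2 that draws monocytes out of the bone marrow and is also carried by effector T cells, varied less than *Ccr1* and *Ccr3*. It stood at 11.3, 9.77, 9.18, 5.01, 4.63 and 4.27 CPM. Libraries 4, 5 and 6 were again the low ones, and library 1 exceeded library 6 by a ratio of 2.64 (2.17 to 3.21). Of the 50-base runs in the annotated *Ccr2* transcripts, 1.91% also occurred in another gene, so some reads could belong elsewhere. The share of such reads was not measured, as it also depends on the levels of the other genes.

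*Cxcr1*, whose human counterpart is an interleukin 8 receptor of neutrophils, had the most reads of the 7. It stood at 19.6, 17.4, 14.7, 4.96, 4.20 and 4.44 CPM, from 608, 603, 511, 188, 146 and 158 reads. Libraries 1, 2 and 3 all lay above 13 CPM with their intervals, the lowest limit being 13.4 CPM in library 3, and the highest limit among the others was 5.72 CPM in library 4. Library 1 exceeded library 5 by a ratio of 4.66 (3.89 to 5.62). The *Cxcr1* model behind the FPKM values was 3435 bases long, more than the whole span of 2924 bases in RefSeq for GRCm38.p6. Where its reads lie relative to the coding exon could not be seen in the counts.

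*Cxcr2*, the receptor for Cxcl1, Cxcl2 and Cxcl5 that calls neutrophils into tissue, stood at 5.05, 5.58, 4.42, 1.16, 1.41 and 1.41 CPM. The split was the same as for *Cxcr1*, although library 2 was highest and library 4 lowest, with a ratio of 4.81 (3.45 to 6.83). None of the 1440 runs of 50 bases in the annotated *Cxcr1* transcripts occurred in another gene, although these transcripts are shorter than the model counted. In *Cxcr2*, 6.68% of runs did, through sequence shared with many unrelated genes.

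*Cxcr3*, the receptor for the interferon-induced chemokines Cxcl9 and Cxcl10, had the opposite order. It stood at 5.83, 4.77, 3.73, 8.44, 8.13 and 9.39 CPM, so that libraries 4, 5 and 6 were the high ones. Their lowest limit was 7.21 CPM in library 5, above the highest limit of the others, 6.74 CPM in library 1. Library 6 exceeded library 3 by a ratio of 2.52 (2.05 to 3.11), and the range fell below 2-fold without library 3, at 0.97 on the log2 scale.

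*Cxcr6* varied least, at 8.34, 8.76, 8.72, 5.48, 6.84 and 7.25 CPM. Library 4 was lowest, while the intervals of libraries 1 and 6, 7.35 to 9.41 and 6.40 to 8.20 CPM, overlapped. Library 2 exceeded library 4 by a ratio of 1.60 (1.33 to 1.91), and without library 4 the range was 0.35 on the log2 scale, against 0.67 with it. *Cxcr6* lies within the span of *Fyco1*, a gene of vesicle transport, and reads cannot be told apart there if strand was not used. *Fyco1* itself stood between 28.0 and 32.9 CPM.

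**Figure D2:**
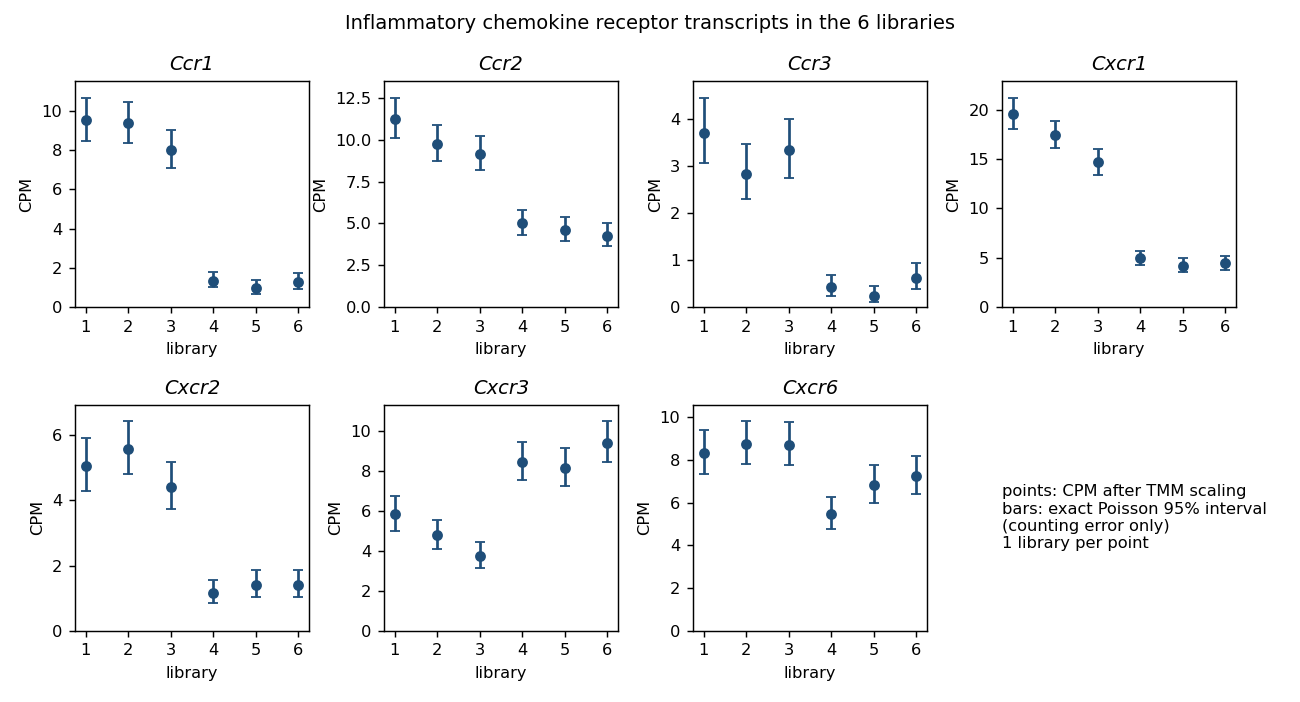
CPM after TMM scaling by library for each of the 7 receptors, with exact Poisson 95% intervals as bars and each vertical axis starting at 0. Libraries 4, 5 and 6 are the lowest for *Ccr1*, *Ccr2*, *Ccr3*, *Cxcr1*, *Cxcr2* and *Cxcr6* and the highest for *Cxcr3*. *Cxcr6* varies least, between 5.48 and 8.76 CPM.

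Set beside the whole table, 6 of the 7 receptors ranged at least 2-fold between the highest and lowest library, where 10.5% of the 11516 genes averaging 1 CPM or more did. Ranges for these counts were taken on the log2 scale after a prior count of 2 was added, which shrinks those of low genes. At 4-fold there were 4 of the 7, *Ccr1*, *Ccr3*, *Cxcr1* and *Cxcr2*, and 1.30% of all genes. With the deposited FPKM values there were 3, as *Cxcr2* ranged 1.89 on the log2 scale, and without library 4 there were also 3, with *Cxcr2* at 1.95. The median range was 4.61-fold over the 7 and 1.29-fold over all genes. These shares describe the genes and are no evidence about them, since the range was known when they were chosen. Non-overlapping intervals of the highest and lowest library, found for 7 of 7, were found for 85.0% of all genes.

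The order of the libraries was common in the table. Libraries 4, 5 and 6 held the 3 lowest values of 6 of the 7 receptors, *Cxcr6* included, and of 29.1% of all genes tested. Libraries 1, 2 and 3 held the 3 lowest values of *Cxcr3* and of 30.3% of all genes. Both splits were the same with DESeq2 size factors, plain totals and deposited FPKM for each of the 7. The spread of a gene over the libraries was also set against counting error, as chi-square per degree of freedom. It was 164 for *Cxcr1*, 129 for *Ccr1*, 48.8 for *Ccr3*, 47.5 for *Cxcr2*, 44.1 for *Ccr2*, 26.7 for *Cxcr3* and 7.97 for *Cxcr6*, with a median of 7.65 over all genes. This measure grows with the number of reads, so it does not rank genes of different depth. By range, *Cxcr6* lay at percentile 77.9 of all genes tested.

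**Figure D3:**
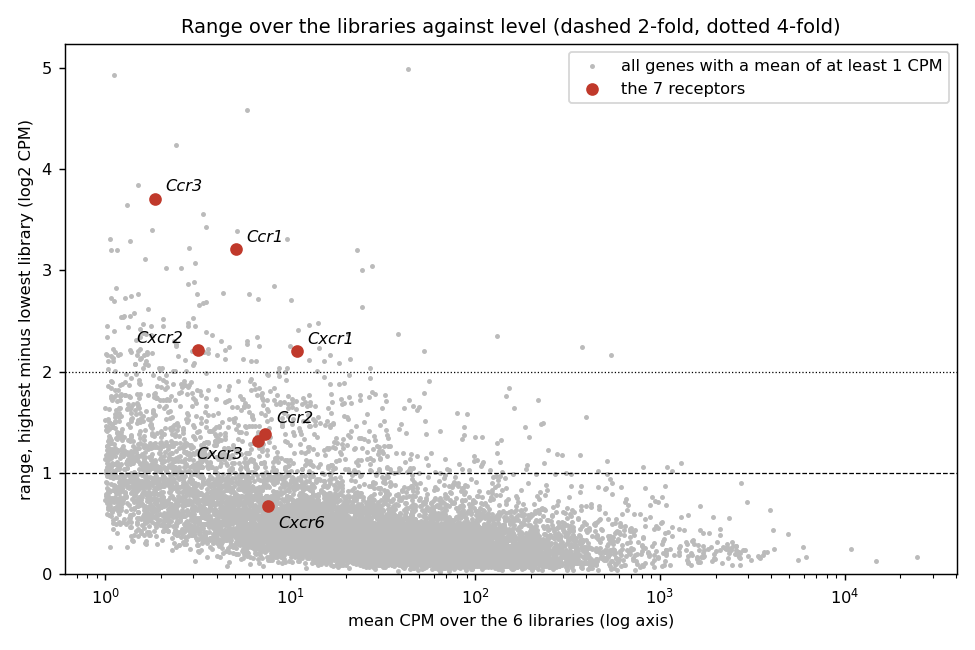
Range over the 6 libraries on the log2 CPM scale against mean CPM on a log axis, for all 11516 genes averaging 1 CPM or more in grey and the 7 receptors in red. *Ccr3* and *Ccr1* lie highest of the 7 at 3.71 and 3.21, *Cxcr1* and *Cxcr2* lie just above the 4-fold line at 2.21, and *Cxcr6* lies among the bulk of genes at 0.67.

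Ratios of 2 genes within a library do not depend on the scaling between libraries. They do depend on the gene lengths behind the FPKM, of which that of *Cxcr1* exceeds its RefSeq span. Per length, *Cxcr3* stood to *Cxcr1* as 0.636, 0.584, 0.543, 3.63, 4.14 and 4.51 to 1. By these lengths the more abundant of the 2 CXC receptor genes was *Cxcr1* in libraries 1, 2 and 3 and *Cxcr3* in libraries 4, 5 and 6. No 95% counting interval of the ratio reached 1. *Ccr1* likewise stood to *Ccr2* as 1.41, 1.60, 1.46, 0.448, 0.352 and 0.505 to 1, and again no interval reached 1. *Ccr3* stood to *Ccr2* as 0.445, 0.392, 0.491, 0.114, 0.0673 and 0.196 to 1. *Ccr3* was thus the lower of this pair in every library, by more in libraries 4, 5 and 6. *Cxcr6* stood to *Cxcr3* as 1.22, 1.56, 1.99, 0.552, 0.715 and 0.657 to 1, so these most abundant of the 7 by median deposited FPKM changed places.

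For other pairs the intervals of all 6 libraries overlapped. *Cxcr1* stood to its neighbour *Cxcr2* as 3.52, 2.84, 3.02, 3.88, 2.71 and 2.87 to 1, where the lowest upper limit was 3.36 and the highest lower limit 2.95. *Ccr1* stood to *Ccr3* between 2.58 to 1 in library 6 and 5.24 to 1 in library 5, where the interval of 2.38 to 13.1 was widest. These 2 pairs were also the closest in pattern among the 7. The root mean square difference of their log2 CPM, each centred on the gene's own mean, was 0.18 for *Cxcr1* and *Cxcr2* and 0.28 for *Ccr1* and *Ccr3*, over 6 libraries. It was 1.91 for *Ccr3* and *Cxcr3*, the most unlike pair.

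**Figure D4:**
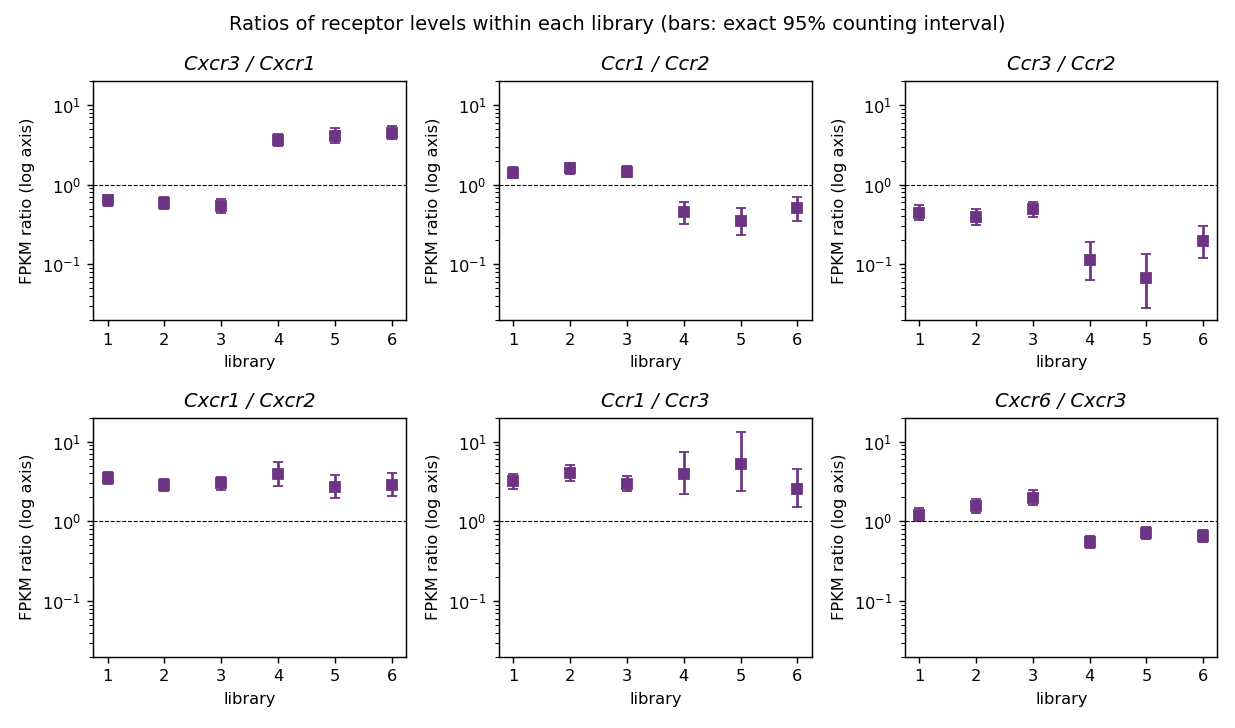
Ratio of FPKM of 2 receptor genes within each library on a log axis, with exact 95% counting intervals and a dashed line at 1. *Cxcr3*/*Cxcr1* lies below 1 in libraries 1, 2 and 3 and above it in the others, *Ccr1*/*Ccr2* and *Cxcr6*/*Cxcr3* the reverse, while *Cxcr1*/*Cxcr2* and *Ccr1*/*Ccr3* stay above 1 in every library.

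Genes beside the receptors were also read. *Ccr1l1*, the *Ccr1*-like gene between *Ccr1* and *Ccr3*, reached at most 0.202 CPM in library 2 and had no read in libraries 4, 5 and 6. The long noncoding RNA *Gm51701*, beside *Ccr1*, stood at 11.9, 9.34, 11.4, 3.59, 4.08 and 4.36 CPM. *Gm39469*, near *Ccr2*, ranged only from 6.39 to 8.12 CPM. On chromosome 1, *Rufy4*, next to *Cxcr2*, stood at 2.99, 3.12, 2.12, 1.21, 0.949 and 1.35 CPM, with libraries 4, 5 and 6 lowest as for *Cxcr1* and *Cxcr2* and a smaller range. *Ccr9* and *Xcr1*, near *Cxcr6*, were at or below 0.0862 CPM in every library.

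Genes with the most similar pattern were sought among genes averaging 10 CPM or more by the same root mean square difference. For *Cxcr1* they included *Gzmb*, a granule protease of killer cells, at 0.12, *Tgfb3*, a transforming growth factor, at 0.12 and *Emilin2*, a matrix glycoprotein, at 0.13. For *Cxcr2* they included *Tgfb3*, *Slc41a2*, a magnesium transporter, and *Ecm1*, a secreted matrix protein, from 0.13 to 0.15. *Ccr1* and *Ccr3* had the same 4, *Cstdc4* and *Csta2*, protease inhibitors of the stefin family, *Smtn*, a cytoskeletal gene, and *Prf1*, the gene of perforin, but less closely, from 0.20 to 0.30 for *Ccr1* and from 0.35 to 0.46 for *Ccr3*. Near *Ccr2* lay *Pde2a*, a cyclic nucleotide phosphodiesterase, at 0.05, then *Cysltr1*, a leukotriene receptor, *Ust* and *Fam114a1*. Near *Cxcr3* lay *Kcna3*, a potassium channel of T cells, at 0.12, *Uhrf1* and *Birc5*, genes of dividing cells, and *Aqp9*, at 0.15 to 0.16. Likeness here is a description over 6 libraries of unknown treatment.

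The other receptors differed in how far they ranged. *Cxcr4*, the receptor that retains cells in bone marrow, ranged more than 2-fold, from 124 to 263 CPM with libraries 4, 5 and 6 low. *Ccr4*, a receptor of type 2 and regulatory T cells, ranged from 156 to 186 CPM, *Ccr7* from 282 to 391 CPM and *Cxcr5*, the follicular helper receptor, from 2.96 to 4.25 CPM. *Ccr8*, a receptor abundant on tissue regulatory T cells, stood at 47.1, 56.2, 53.7, 71.2, 63.96 and 74.99 CPM, with the high libraries of *Cxcr3*. *Ccrl2*, an atypical receptor that does not itself drive migration, stood at 4.41, 6.10, 4.36, 9.02, 8.59 and 9.39 CPM. *Ccr6*, *Ccr9*, *Ccr10*, *Ccr1l1*, *Xcr1*, *Cx3cr1*, *Ackr2* and *Ackr3* had means under 1 CPM.

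Of 18 ligand genes of the 7 receptors with a row, 4 averaged 1 CPM or more. The range reached 2-fold for 3 of these 4, where it did for 10.5% of all genes tested. *Ccl3*, a ligand of Ccr1, stood at 13.6, 13.4, 11.9, 5.46, 6.58 and 6.86 CPM, and *Ccl4*, a related macrophage inflammatory protein, at 27.7, 24.1, 29.4, 12.4, 9.89 and 14.1 CPM. Both were low in the libraries in which *Ccr1* was low, as were 29.1% of all genes tested. *Ccl5*, a ligand of Ccr1 and Ccr3, ran the other way, at 15.03, 15.9, 16.7, 35.8, 33.06 and 29.8 CPM. *Mif*, a cytokine that also binds Cxcr2, ranged from 512 to 559 CPM. The Cxcr3 ligands *Cxcl9* and *Cxcl10* and the Cxcr6 ligand *Cxcl16* had means under 1 CPM.

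**Figure D5:**
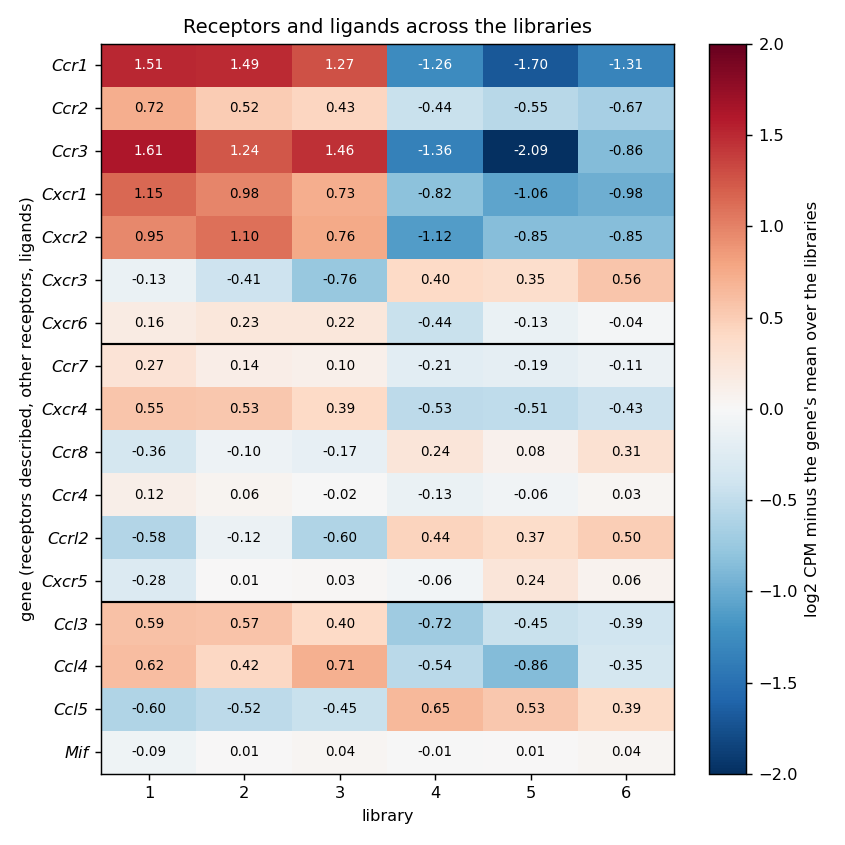
Log2 CPM of each gene minus its mean over the 6 libraries, in the cells and by colour from -2 to 2, for the 7 receptors, 6 other receptors and 4 ligand genes. *Ccr1*, *Ccr2*, *Ccr3*, *Cxcr1*, *Cxcr2*, *Cxcr6*, *Ccr7*, *Cxcr4*, *Ccl3* and *Ccl4* are positive in libraries 1, 2 and 3 and negative in the others. *Cxcr3*, *Ccr8*, *Ccrl2* and *Ccl5* are the reverse.

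Among genes downstream of the receptors, 0 of 20 measured genes of G proteins and their effectors ranged 2-fold or more, where 10.5% of all genes did. Of the 9605 genes averaging 5 CPM or more, 450 did. The 20 all averaged 30.2 CPM or more, so they were not compared with genes of like level. Their median range was 0.21 on the log2 scale, against 0.37 over all genes, scarce ones included. *Rac2*, a GTPase of leukocyte movement and the most abundant of them, ranged from 925 to 1030 CPM, and *Cdc42* from 404 to 427 CPM. Of 6 receptor kinases and arrestins, which silence active receptors, 0 ranged 2-fold, with a median range of 0.44, above that of all genes. *Arrb1*, the gene of an arrestin, stood between 378 and 541 CPM, and *Grk2*, that of a receptor kinase, between 266 and 315 CPM. Of 7 measured RGS genes, whose products shorten G protein signals, *Rgs2* alone ranged 2-fold or more, at 38.4, 42.5, 41.04, 19.8, 17.6 and 17.8 CPM. The median range of the 7 was 0.43, also above that of all genes. *Rgs1*, the most abundant of them, ranged from 249 to 378 CPM, ahead of *Rgs16* from 77.6 to 111 CPM.

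Since several of the 7 receptors are best known on myeloid cells, markers of other cell types were read in the same libraries. T cell genes were abundant, with *Cd28* from 507 to 848 CPM and *Cd4* from 412 to 482 CPM. Of the 7 T cell genes read, 0 ranged 2-fold. That range was reached by 10.5% of all genes, and by 450 of the 9605 averaging 5 CPM or more. Of 11 neutrophil markers 6 had a row, and their summed level was 1.61, 1.16, 1.89, 0.422, 0.460 and 0.281 CPM. *S100a8*, *Elane* and *Csf3r* each had 0 reads in 5 libraries and 1 in the other. *Ly6g* made up most of the sum in libraries 1, 2 and 3, at 1.42, 0.983, 1.29, 0.0791, 0.201 and 0.0562 CPM, low in the libraries in which *Cxcr1* and *Cxcr2* were low. *Mpo* was lowest in library 1, at 0.0644 CPM, and highest in library 3, at 0.602 CPM. The part of neutrophils in the *Cxcr1* and *Cxcr2* levels was not tested.

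All 10 monocyte and macrophage markers had a row, with a summed level of 11.4, 11.2, 14.0, 11.5, 11.1 and 12.5 CPM, mostly *Cd68*, at 8.68 to 12.1 CPM. *Ly6c2* followed at 1.18 to 2.28 CPM, and *Csf1r*, *Lyz2* and *C1qa* had at most 3, 4 and 1 reads in any library. For eosinophils, basophils and mast cells 6 of 10 markers had a row, with a summed level of 13.0, 13.1, 13.0, 8.31, 6.67 and 7.37 CPM, nearly all from *Kit*, which ranged from 6.35 to 12.8 CPM. *Siglecf* and *Prg2*, the eosinophil genes with most reads, had at most 12 and 10 reads in a library, and *Cpa3* and *Fcer1a* at most 1. *Kit* and *Prg2* were lowest in libraries 4, 5 and 6, in which *Ccr3* was low, an order found for 29.1% of all genes tested. *Siglecf* did not share it, at 0.386, 0.0289, 0.115, 0.237, 0.172 and 0.225 CPM. The part of other cells in *Ccr3* was not tested. Natural killer markers summed to at most 0.520 CPM, led by *Klrk1* and *Klrb1c*, dendritic cell markers to at most 2.13 CPM, of which *Flt3* gave up to 1.74 CPM, and B cell markers to at most 7.16 CPM, with *Cd79b* at 1.83 to 3.80 CPM and *Cd79a* below it. *Cd8a*, the marker of killer T cells, stood at 0.231 to 0.661 CPM, from 8 to 23 reads, whereas *Cd8b1* stood at 8.15 to 9.57 CPM. In RNA from mixed cells, fewer cells that carry a receptor and less of its RNA per cell cannot be told apart.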

How the data were processed

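Per the labels' protocols, TRIzol was used to extract RNA from the T cells, and the VAHTS Universal V5 kit to make libraries. HISAT2, HTSeq, fastp, DESeq2, R 3.2.0 and the assembly GRCm39 are named in the submitters' processing notes. Which annotation was counted, and whether by strand, is not given in the sources used here. Per gene, the authors deposited a raw read count and an FPKM value for each library. For the 7 genes and the rest, FPKM matched the count over length and library total within a relative 1.91e-06, so it is another scaling of the same reads.

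The labels give no groups, so no test between libraries was made. Counts of 32435799 to 36316162 per library were scaled by TMM in edgeR 4.0.16 (R 4.3.3), with factors from 0.958 to 1.04, a difference of 0.12 on the log2 scale. Ranges used a prior count of 2 and genes averaging 1 CPM or more. Intervals came from scipy 1.17.1. A floor of 3 counts stood for 0.0791 to 0.0966 CPM. Reads of amplified libraries are not independent molecules, so intervals cover counting error only. Range and interval steps were tested on simulated counts. Alternatives were DESeq2 1.42.0 size factors, plain totals, FPKM with a pseudocount of 0.1, a prior count of 0.5, other minimum levels and each library left out.

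The 7 genes and all lists were chosen with earlier results of these data known. Named were the 7, the 4 most similar named genes of each that ranged 2-fold, expressed receptors and ligands, neighbours within 2 genes, and, of other lists, the 2 most abundant genes and those ranging 2-fold. All 7 matched a RefSeq symbol. Shared sequence was counted in GENCODE M21 transcripts, either strand. Of 21362 gene names, 20421 matched RefSeq. Protein sequences were not used here, and results for a few genes that the rule names are not reported.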

Additional observations from a re-analysis of the deposited data

Results flagged for a closer look

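Among 89 genes examined for 1 library far from the rest, *Cd68*, a lysosomal protein gene read as a macrophage marker, had such a library. Library 3 stood at 12.1 CPM and the other 5 between 8.68 and 9.64 CPM, so that its gap to the nearest library was 0.716 of the whole range. Chance alone marks about 1 in 20 genes by this measure if the values of each form 1 group. None of the 7 receptors had such a library. Where a wide gap splits the libraries into clusters, as for most of the 7, the measure can hardly mark 1 library.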

How the results depend on the processing

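No paired analysis was possible because the labels give no groups. The receptors at 2-fold or more numbered 6 with every scaling, prior count and FPKM, 5 to 6 with each library left out and 4 at a mean of at least 5 CPM, where fewer genes are tested. Those at 4-fold or more numbered 4, but 3 with deposited FPKM, and 3 to 4 with each library left out. A mean of at least 5 CPM left out *Ccr3* and *Cxcr2*, at 1.86 and 3.17 CPM, and 2 of the remaining receptors ranged 4-fold. Of all 9605 genes at that level 450 ranged 2-fold and 41 ranged 4-fold, against 1204 and 150 of 11516. Without a filter these were 6870 and 1509 of 21362 genes, and with deposited FPKM 82 of 11516 genes ranged 4-fold. The log2 range of *Ccr3* was 3.71, 2.73 with FPKM, whose pseudocount shrinks low genes, and 2.97 to 3.71 with each library left out. That of *Cxcr3* was 0.97 to 1.32 and that of *Cxcr6* 0.35 to 0.67 with each library left out. The other 123 of 133 alternative values lay within the counting interval of the ratio, within 1.5 times a count, or at the same place in the order of levels. Many of these could hardly move. The scaling factors were kept, so leaving out a library neither highest nor lowest for a gene barely changes its range. All checks of the order used the same gene lengths. Depth limits *Ccr3* most, with 375 reads in all, and *Ccr1l1* and most ligands lie near or under the floor.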

Other observations

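*Tbx21*, the type 1 factor known to drive *Cxcr3*, stood at 31.3, 32.4, 34.7, 34.6, 36.1 and 37.3 CPM. Its range was 0.25 on the log2 scale, that of *Cxcr3* was 1.32, and the part of *Tbx21* in the *Cxcr3* levels was not tested. *Gata3*, the type 2 factor, ranged from 137 to 182 CPM.

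The values of 6 of the 7 receptors fell into separate clusters of libraries whose treatment is not given. Such a split was common, as libraries 4, 5 and 6 held the 3 lowest values of 29.1% of all genes tested. Libraries 1, 2 and 3 held those of 30.3%, and the place of the widest gap was not counted over all genes. For *Ccr1*, *Ccr2*, *Ccr3*, *Cxcr1* and *Cxcr2* the widest gap on the log scale lay between libraries 4, 5 and 6 below it and libraries 1, 2 and 3 above it. No library lay between 1.34 and 8.03 CPM for *Ccr1*, between 0.619 and 2.83 CPM for *Ccr3*, or between 4.96 and 14.7 CPM for *Cxcr1*. The gap ran from 5.01 to 9.18 CPM for *Ccr2* and from 1.41 to 4.42 CPM for *Cxcr2*. For *Cxcr3* libraries 1, 2 and 3 lay below a gap from 5.83 to 8.13 CPM. For *Cxcr6* the widest gap set library 4 alone, at 5.48 CPM, below the next at 6.84 CPM.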
